A study of Mus musculus with 34 samples.

Results

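Collagens and stromal matrix genes were followed across all 16 groups of a mouse macrophage array series, because bone marrow cultures can carry stromal cells along with the macrophages. A gene was included when its symbol begins with Col and a digit (31 genes on the array) or when it stood on a list of 26 matrix, contractile and stromal symbols, of which 23 had a probe set. Together these gave 50 genes with 74 probe sets, out of 8252 genes and 12488 probe sets. Each gene is given by the probe set with its highest mean. The listed genes Cald1, Fbn1 and Igfbp5 had no probe set in the table used here.

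The cells were bone marrow-derived macrophages grown for 7 days, and the arrays were Affymetrix MG-U74Av2. The stimulated cells were IL-10-/- (10 arrays), IL-6-/- (8 arrays) or wild type (10 arrays). They had received LPS, the bacterial lipopolysaccharide, at 100 ng/ml for 45 or 180 min, alone or with IL-10 at 10 ng/ml, or LPS with IL-6 at 2 ng/ml for 45 min. Each of these 15 groups held 2 arrays, except IL-6-/- cells with LPS alone, which had 1 array at 45 min and 1 at 180 min. The lone arrays were assumed to vary as the others did. Resting cells gave 4 arrays, and their labels name no genotype. The labels name L cell conditioned medium as the CSF-1 source of resting cells and mCSF as that of stimulated cells, so stimulation, CSF-1 source and genotype cannot be told apart in any comparison with resting cells. The titles call the arrays biological replicates, so a p-value here sets a difference against array-to-array spread alone.

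Fibroblasts and related mesenchymal cells secrete the fibrillar collagens as procollagen, and the trimmed molecules assemble into fibrils that lysyl oxidase cross-links. Proteoglycans such as decorin and biglycan bind those fibrils, while fibronectin forms a scaffold to which cells attach. In bone marrow, stromal cells also make CSF-1 and the chemokine CXCL12 and carry the adhesion molecule VCAM1, and activated stromal cells express the contractile proteins of smooth muscle. Macrophages themselves can express some of these genes, fibronectin among them.

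The array values are probe set signals on a linear scale that the authors had scaled to a common trimmed mean, and they are compared between arrays, not between genes. Changes are differences of log2(signal + 50), with their standard error from limma, and a change was called at a Benjamini-Hochberg adjusted p under 0.05 over the 8224 probe sets tested. Probe sets were tested when at least 2 grouped arrays reached a signal of 200, which left 36 of the 50 genes in the tests. Of these 36, 10 reached that signal in stimulated arrays alone (Lox, Sparc, Col5a2, Vcam1, Cxcl12, Serpinf1, Dcn, Col8a1, Postn and Col11a1). Such genes could pass only by being high there, so the counts below describe the genes and lend no support to a difference. The 14 genes not tested were Lum, Col14a1, Pdgfrb, Col19a1, Col11a2, Col15a1, Col2a1, Col10a1, Col4a5, Col13a1, Col17a1, Col4a4, Col22a1 and Col4a3. Their highest signal was 278.6, in 1 resting array for Col10a1. In 9 of them no grouped array reached 200, and in the other 5 exactly 1 did.

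The macrophage markers were high throughout. The summed signal of the 14 macrophage markers ran from 151777 to 185319 in IL-10-/-, 158687 to 193819 in IL-6-/-, 150691 to 175838 in wild type and 158356 to 189346 in resting arrays. Array medians lay between 167.8 and 214.1 in stimulated and between 158.6 and 237.3 in resting arrays. Resting replicate 4 stood apart: its correlation with the other resting arrays was 0.863 to 0.885 over 3 pairs, against 0.911 to 0.930 among the other 3 and 0.932 to 0.960 for 13 pairs of stimulated replicates, with no p given. It had the highest resting signal for 19 of the 36 tested genes, while replicate 3 was lowest for 17. Results against resting cells are therefore also given without replicate 4.

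In every genotype most of the 36 tested genes had higher signals in stimulated than in resting arrays. For 13 genes every stimulated array lay above every resting array, against 3.47% of all probe sets tested: Bgn, Col1a2, Fn1, Col6a1, Lox, Acta2, Tagln, Mgp, Sparc, Col5a2, Cxcl12, Fstl1 and Serpinf1. Of these, Lox, Sparc, Col5a2, Cxcl12 and Serpinf1 had passed the signal filter through stimulated arrays alone and lend no support to a difference. Without resting replicate 4, Col5a1, Myl9, Col3a1 and Dcn joined the 13 genes, giving 17 against 4.71% of all probe sets. Dcn had also passed the filter through stimulated arrays alone. In stimulated IL-10-/- cells 27 of the 36 tested genes were higher and 1 was lower than in resting cells, where 18.4% of all probe sets were called higher and 23.1% lower. In stimulated IL-6-/- cells 23 were higher and 1 lower, with 16.4% and 19.5% of all probe sets. In stimulated wild type cells 27 were higher and 1 lower, with 17.8% and 21.0%. The median change of the 36 genes was 1.35 in IL-10-/-, 0.91 in IL-6-/- and 1.24 in wild type cells on the log2 scale, where the median of all probe sets was -0.05, -0.06 and -0.04. These comparisons share the 4 resting arrays, and without replicate 4 the numbers higher were 27 in IL-10-/-, 24 in IL-6-/- and 27 in wild type cells. In these bulk cultures more cells of a type and more RNA per cell cannot be told apart.

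**Figure D1:**
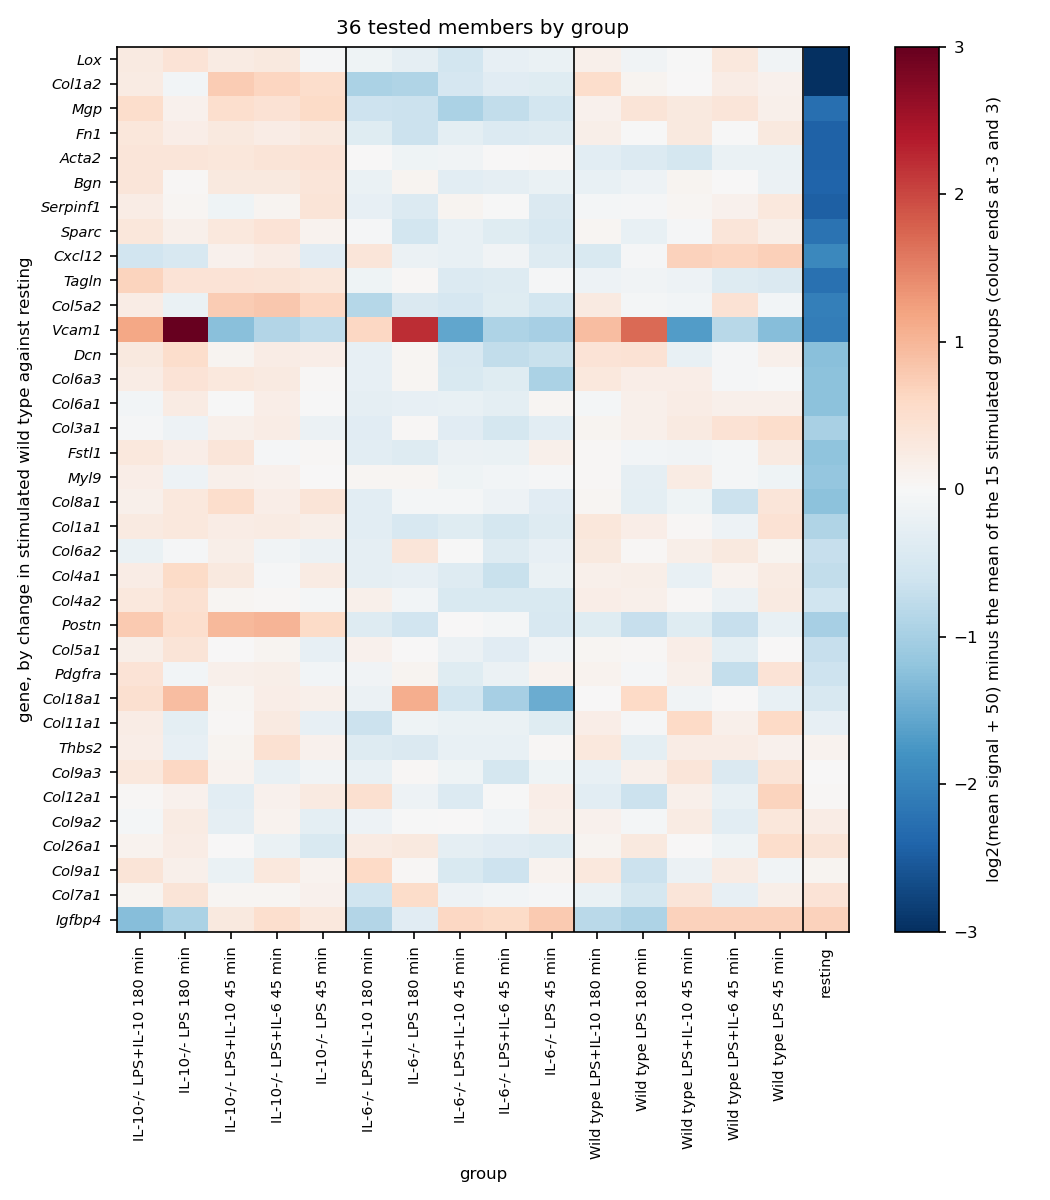
Log2(mean signal + 50) of each tested gene (rows) in each of the 16 groups (columns), shown as the difference from the mean of the 15 stimulated groups, with colours ending at -3 and 3. Lox, Col1a2, Mgp and Fn1 are low in the resting column, while in the 180 min columns Igfbp4 is low and Vcam1 is high.

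The fibrillar collagens are the fibril-forming group, with type I, made of the Col1a1 and Col1a2 chains, as the main collagen of bone and tendon. Of the 6 tested, 5 were higher than in resting cells in each of IL-10-/-, IL-6-/- and wild type cells, with median changes of 1.14, 0.67 and 1.25. Of all probe sets 18.4%, 16.4% and 17.8% were called higher in these comparisons. Col1a2 had signals of 1970.1 to 3841.6 in IL-10-/- arrays with a median of 3182.35. It had 1099.5 to 1856.3 in IL-6-/- arrays with a median of 1521.1, and 1770.2 to 3731.1 in wild type arrays with a median of 2411.4. The resting arrays had 238, 50, 105.6 and 397.6. No stimulated array came near the resting ones, and the IL-6-/- arrays were mostly lower than the other stimulated ones, with some overlap with wild type. The change against resting cells was 3.83 ± 0.23 in IL-10-/- and 2.79 ± 0.25 in IL-6-/- cells (± SE). In wild type cells it was 3.58 ± 0.23 (12.0-fold on the signal + 50 scale, limma adjusted p = 1.02e-11). The second Col1a2 probe set changed by 0.39 in stimulated wild type cells and was not called (limma adjusted p = 0.096), so the size of the Col1a2 change rests on 1 of 2 probe sets.

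The 250 bases before the annotated starts of Col1a2 and Col3a1 are shown because these genes make chains of the main interstitial collagens and were called higher in stimulated cells of each genotype. They come from RefSeq on the GRCm38.p6 build, plus strand, 5′ to 3′, at chr6:4505368-4505617 and chr1:45311288-45311537. Capitals mark a CCAAT in Col1a2, 109 to 105 bases before the start, and a TATAAA in Col3a1, 117 to 112 bases before it.
Col1a2: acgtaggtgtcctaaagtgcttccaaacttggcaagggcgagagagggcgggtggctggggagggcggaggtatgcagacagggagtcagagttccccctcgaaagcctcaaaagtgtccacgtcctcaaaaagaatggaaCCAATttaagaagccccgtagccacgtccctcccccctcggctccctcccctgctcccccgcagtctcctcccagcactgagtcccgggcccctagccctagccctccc
Col3a1: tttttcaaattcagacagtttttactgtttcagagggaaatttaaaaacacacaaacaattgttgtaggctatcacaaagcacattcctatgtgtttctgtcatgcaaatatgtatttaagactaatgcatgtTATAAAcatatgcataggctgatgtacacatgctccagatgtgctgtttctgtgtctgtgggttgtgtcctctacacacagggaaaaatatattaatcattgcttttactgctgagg
Promoter windows were found for 33 of the 50 genes (37 windows), and both strands were searched. CCAAT stood in 11 of the 37 windows and in 33.8% of all 32851 windows of that length. TATAAA stood in 8 of the 37 and in 12.4% of all, and the NF-kappaB motif, searched as GGGANNNNCC, in 10 of the 37 and in 17.6% of all. A match of letters describes the window and shows no binding.

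Col3a1 makes the chain of type III collagen, which is found with type I in soft tissue and vessels. Its signals ran from 231.8 to 412.1 in IL-10-/- arrays (median 298.8), 150.3 to 312.4 in IL-6-/- arrays (median 220.6) and 283.2 to 508.1 in wild type arrays (median 368.5). The resting arrays had 111.5, 147.4, 52.1 and 201.9. The highest resting array, replicate 4, overlapped the lower IL-6-/- arrays, and 25 of 28 stimulated arrays lay above it. The changes were 1.05 ± 0.20 in IL-10-/-, 0.74 ± 0.21 in IL-6-/- (limma adjusted p = 0.0075) and 1.34 ± 0.20 in wild type cells. In IL-6-/- cells the call was lost in 1 of 10 fits that left out an array, without resting replicate 3 (limma adjusted p = 0.055).

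Col1a1, the partner chain of Col1a2, overlapped in part. It had 1265.3 to 1674.7 in IL-10-/- arrays (median 1575.4), 823.4 to 1072.3 in IL-6-/- arrays (median 927.1) and 1097.6 to 1745.8 in wild type arrays (median 1436.75). The resting arrays had 881.9, 381.6, 455.4 and 891.7. Resting replicates 1 and 4 reached the lowest IL-6-/- arrays, and all IL-10-/- and wild type arrays lay above them. The changes were 1.22 ± 0.17 in IL-10-/-, 0.58 ± 0.17 in IL-6-/- (limma adjusted p = 0.0124) and 1.16 ± 0.17 in wild type cells. The IL-6-/- call was lost without resting replicate 2 or resting replicate 3, with an adjusted p of up to 0.0946.

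Col5a2 and Col5a1, chains of type V collagen that sits inside type I fibrils, were also higher. Col5a2 had 343.8 to 1068.3 in IL-10-/- arrays (median 863.25), 254.8 to 446 in IL-6-/- arrays (median 372.15), 475.3 to 863.2 in wild type arrays (median 519.8), and 130.1, 90.5, 40.1 and 115.2 in resting arrays. Col5a1 had 634.2 to 1091.7 in IL-10-/-, 514.3 to 935.6 in IL-6-/- and 645.7 to 945.6 in wild type arrays, against 456, 452.3, 429.6 and 626.5 in resting arrays. Col5a2 was higher in stimulated than in resting arrays without overlap, while Col5a1 overlapped through resting replicate 4. Col11a1, a minor fibrillar chain typical of cartilage, ran from 15 to 222.2 in stimulated and 57.3 to 135 in resting arrays, and was not called in these 3 comparisons.

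**Figure D2:**
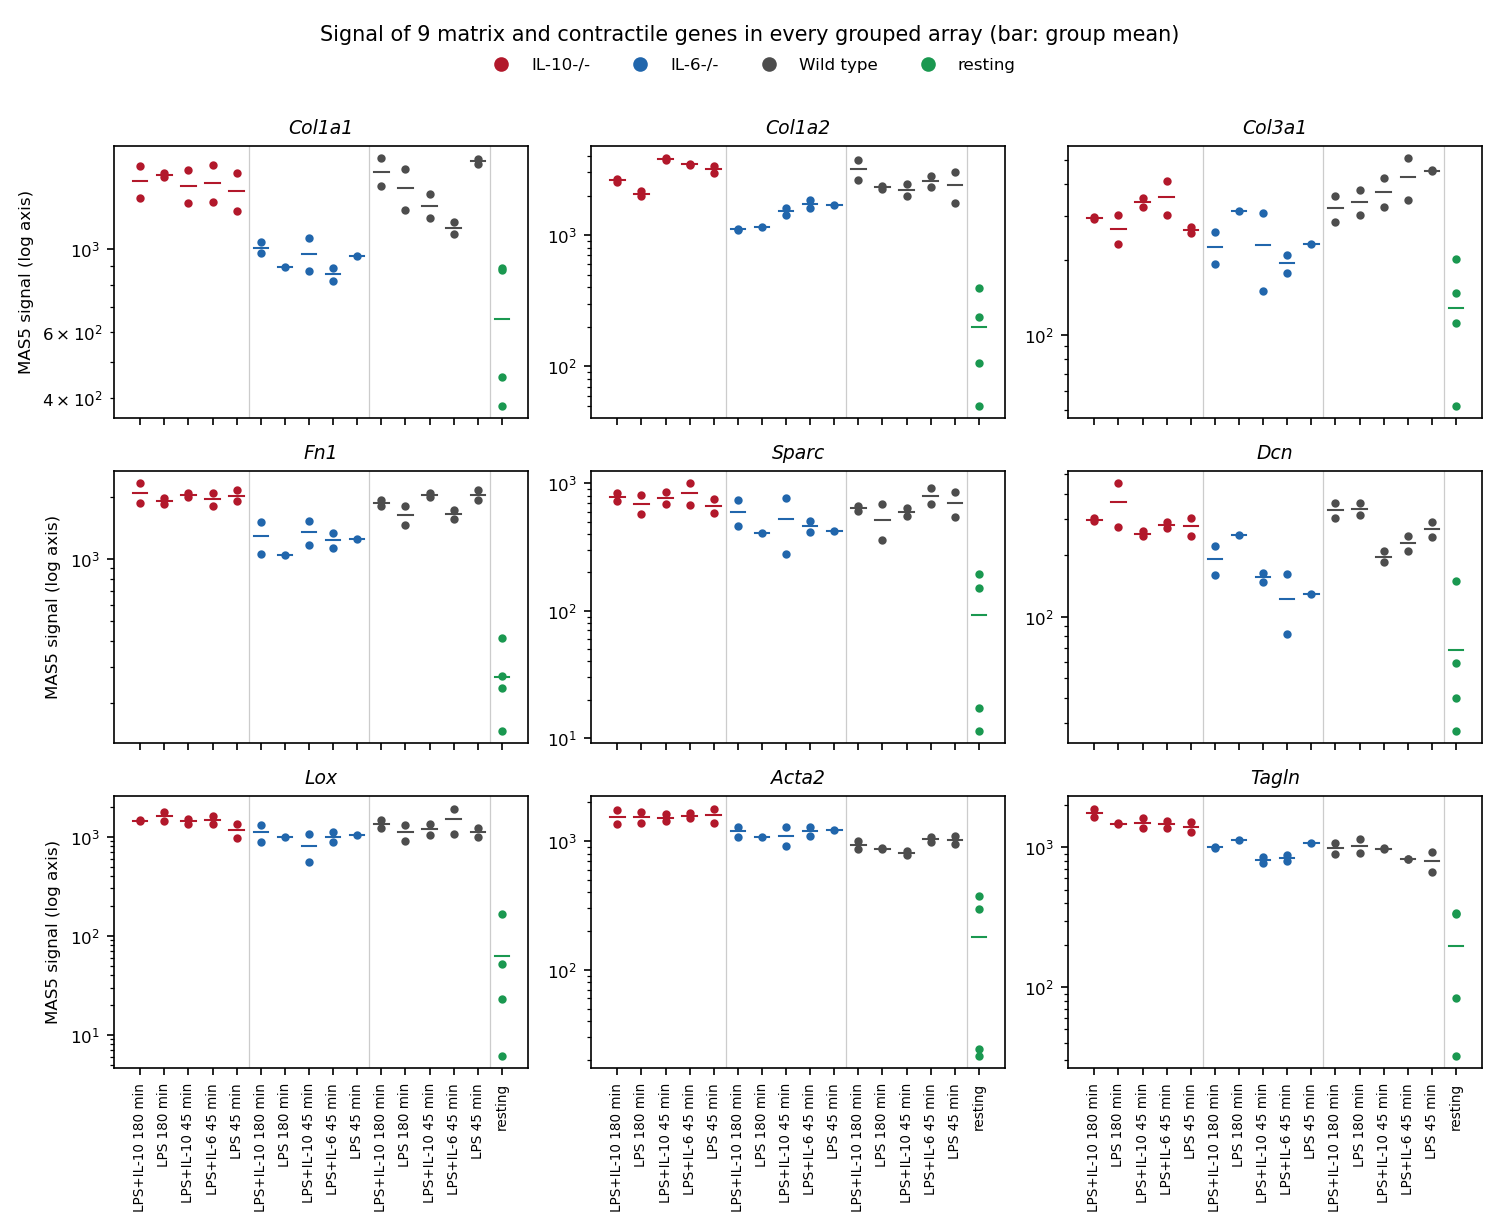
Signal of 9 stromal genes in every array on a log axis, with dots for arrays and a bar for each group mean, and the IL-10-/-, IL-6-/-, wild type and resting groups from left to right. For Col1a2, Fn1 and Lox all stimulated dots lie above the resting dots, and the resting dots spread most.

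The network and basement membrane collagens lie under epithelia, vessels and nerves. All 4 tested genes were higher in stimulated IL-10-/- and in stimulated wild type cells and 1 in IL-6-/- cells, and none separated every stimulated from every resting array. The shares of all probe sets called higher were 18.4% in IL-10-/-, 17.8% in wild type and 16.4% in IL-6-/- cells. Col4a1 and Col4a2, the 2 chains of the common type IV network, changed by 0.86 ± 0.20 and 0.78 ± 0.18 in wild type cells. Col8a1, a chain of the short-chain type VIII network, ran from 248.6 to 459.2 in IL-10-/-, 106.1 to 262.8 in IL-6-/- and 102.1 to 386.9 in wild type arrays. Its resting arrays had 162.9, 32.5, 31 and 49.5, so a single resting array overlapped the stimulated ones. It was the network collagen called in IL-6-/- cells, at 1.15 ± 0.26. Col18a1, whose cleavage releases endostatin, followed time and is described with Vcam1.

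Among the other collagens the 3 type VI chains, which form beaded filaments around cells, were the ones that were higher, and 6 of the 9 tested were not called in stimulated wild type cells. Of all probe sets 17.8% were called higher and 21.0% lower there. Col6a1 had 1092 to 1500.5 in IL-10-/-, 844.2 to 1264.7 in IL-6-/- and 1067.3 to 1620.1 in wild type arrays, against 623.6, 408.6, 345.5 and 562.3 in resting arrays, with no overlap. Col6a3 had 615.9 to 1025.6 in IL-10-/-, 307.9 to 667.7 in IL-6-/- and 524.3 to 911.5 in wild type arrays, against 195.8, 321.9, 114 and 345.1 in resting arrays. The changes in stimulated wild type cells were 1.39 ± 0.14 for Col6a1, 1.43 ± 0.19 for Col6a3 and 1.12 ± 0.28 for Col6a2. The second Col6a1 probe set changed by 0.75 and was not called (limma adjusted p = 0.0709). The cartilage collagens Col9a1, Col9a2 and Col9a3, the anchoring fibril collagen Col7a1, the fibril-associated Col12a1 and Col26a1 were not called in that comparison. The median over the 9 genes was 0.13 in IL-10-/-, -0.13 in IL-6-/- and -0.02 in wild type cells.

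Of the matrix proteoglycans and glycoproteins, which bind, space or cross-link fibrils, 8 of 9 tested genes were higher in each genotype, with medians of 2.72 in IL-10-/-, 1.80 in IL-6-/- and 2.51 in wild type cells. In the same genotypes 18.4%, 16.4% and 17.8% of all probe sets were called higher. Lox, the lysyl oxidase that cross-links collagen, had 977.5 to 1782.2 in IL-10-/- arrays (median 1447.45), 558 to 1320.3 in IL-6-/- arrays (median 1018.6) and 900.4 to 1925.7 in wild type arrays (median 1225.6). The resting arrays had 51.7, 23.1, 6.1 and 166.5. Every stimulated array was far above every resting array. The change was 3.91 ± 0.24 in IL-10-/-, 3.39 ± 0.26 in IL-6-/- and 3.71 ± 0.24 in wild type cells, the last being 13.1-fold on the signal + 50 scale (limma adjusted p = 1.13e-11). Without resting replicate 4 the wild type change of Lox was 4.09.

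Fn1, fibronectin, had 1799.9 to 2316.6 in IL-10-/- arrays (median 1981.5), 1038.2 to 1527.5 in IL-6-/- arrays (median 1210.25) and 1449.8 to 2148 in wild type arrays (median 1870.15). The resting arrays had 237.2, 146.4, 270.6 and 414.8. The groups did not overlap, and the lowest stimulated array was an IL-6-/- one. Fn1 was 2.76 ± 0.16 higher in IL-10-/-, 2.07 ± 0.16 higher in IL-6-/- and 2.63 ± 0.16 higher in wild type cells (6.21-fold, limma adjusted p = 1.35e-12).

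Mgp, the matrix Gla protein that inhibits calcification, had 1044.2 to 1566.1 in IL-10-/- arrays (median 1323.9), 428.3 to 637.2 in IL-6-/- arrays (median 577.75) and 880.1 to 1334.5 in wild type arrays (median 1187.35), against 277.5, 32.3, 75.6 and 243.9 in resting arrays. Bgn, biglycan, had 2496.3 to 4320.6 in IL-10-/-, 2277.3 to 3261.1 in IL-6-/- and 2569.6 to 3796.1 in wild type arrays, against 643.6, 274.8, 226.2 and 1026.5 in resting arrays. Both genes were above resting in every stimulated array, and the Mgp ranges of IL-6-/- and wild type arrays did not meet. Mgp changed by 2.92 ± 0.23 in IL-10-/-, 1.80 ± 0.25 in IL-6-/- and 2.76 ± 0.23 in wild type cells. Bgn changed by 2.90 ± 0.22 in IL-10-/-, 2.45 ± 0.24 in IL-6-/- and 2.53 ± 0.22 in wild type cells. The second Bgn probe set changed by 0.83 in wild type cells and was called, so the size depends on the probe set.

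Sparc, an acidic collagen-binding glycoprotein, had 573.5 to 995.9 in IL-10-/-, 279.4 to 761 in IL-6-/- and 355.5 to 909.2 in wild type arrays, against 192.8, 11.4, 17.4 and 151.8 in resting arrays. Dcn, decorin, had 247.8 to 448.6 in IL-10-/-, 82.1 to 249.5 in IL-6-/- and 184.6 to 361 in wild type arrays, against 27.5, 59.4, 40 and 148.8 in resting arrays. Sparc did not overlap, while Dcn overlapped through resting replicate 4 and the low IL-6-/- arrays. Fstl1, a secreted follistatin-like protein, ran from 231 to 548 in stimulated and 62.5 to 220.4 in resting arrays. Thbs2, the matricellular thrombospondin 2, ran from 61.6 to 206.7 in stimulated and 64.3 to 212.7 in resting arrays and was the tested gene of its class that was not called in the comparisons of stimulated with resting cells.

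The contractile genes are those of smooth muscle and of myofibroblasts, and all 3 tested were higher in each genotype. The shares of all probe sets called higher were 18.4% in IL-10-/-, 16.4% in IL-6-/- and 17.8% in wild type cells. Acta2, smooth muscle actin, had 1353.9 to 1791.6 in IL-10-/- arrays (median 1556.9), 911.8 to 1294 in IL-6-/- arrays (median 1163.5) and 778.9 to 1101.1 in wild type arrays (median 914.25), against 374.6, 21.4, 24.3 and 297.4 in resting arrays. Tagln, the actin-binding transgelin, had 1294.2 to 1898.9 in IL-10-/- arrays (median 1506.55), 771.8 to 1127.4 in IL-6-/- arrays (median 935) and 671.2 to 1140.4 in wild type arrays (median 920.45), against 334.6, 83.5, 32.2 and 337.8 in resting arrays. In both genes the IL-10-/- arrays were all above the wild type arrays, and resting replicates 1 and 4 were more than 3 times resting replicates 2 and 3. Acta2 changed by 3.25 ± 0.32 in IL-10-/-, 2.84 ± 0.33 in IL-6-/- and 2.55 ± 0.32 in wild type cells, and Tagln by 2.96 ± 0.26, 2.33 ± 0.28 and 2.26 ± 0.26 in the same genotypes.

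Myl9, the regulatory light chain of smooth muscle myosin, ran from 273.4 to 451 in IL-10-/-, 224.9 to 447.3 in IL-6-/- and 255.1 to 428.4 in wild type arrays, against 103.9, 41.3, 95.4 and 275.1 in resting arrays. Its window is shown because contractile genes are known for CArG boxes, the site of serum response factor, and it was the 1 window of the 37 with such a box. A CArG box stood in 1.47% of all windows. The bases lie on the plus strand at chr2:156775214-156775463 (GRCm38.p6, RefSeq), with the box in capitals 161 to 152 bases before the start.
Myl9: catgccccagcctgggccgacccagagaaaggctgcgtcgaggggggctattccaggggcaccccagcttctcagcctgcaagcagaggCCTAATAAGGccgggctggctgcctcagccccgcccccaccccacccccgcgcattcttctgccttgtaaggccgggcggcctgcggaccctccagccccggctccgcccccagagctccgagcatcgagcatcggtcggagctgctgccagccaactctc
The window of Acta2 held no match, and none was given for Tagln.

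The stromal receptors, niche and secreted factors split. Cxcl12, the chemokine that holds stem cells in the marrow, had 242.1 to 665 in IL-10-/-, 253.5 to 697.3 in IL-6-/- and 258.6 to 844.1 in wild type arrays, against 51.9, 71.1, 33.1 and 137.1 in resting arrays. Serpinf1, the secreted pigment epithelium-derived factor, had 265.2 to 568.3 in IL-10-/-, 211 to 509.4 in IL-6-/- and 284.5 to 493.9 in wild type arrays, against 28.8, 21.6, 18.6 and 17 in resting arrays. Neither overlapped, with changes in stimulated wild type cells of 2.31 ± 0.21 for Cxcl12 and 2.51 ± 0.19 for Serpinf1. The other Cxcl12 probe sets changed by 0.95 and 1.42 and were called, so its size depends on the probe set. The second Serpinf1 probe set went the other way in that comparison, by -1.02 (limma adjusted p = 0.0154), so the direction for Serpinf1 depends on the probe set. Over the 15 other tested probe sets of these genes, 8 were called in the same direction as the one used, 6 were not called and that 1 was opposite. Pdgfra, the PDGF receptor of mesenchymal cells, ran from 49.6 to 413.8 in stimulated and 85.1 to 246 in resting arrays, with a change of 0.68 ± 0.26 in wild type cells (limma adjusted p = 0.0445).

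Igfbp4, a secreted binding protein of insulin-like growth factors, was the 1 tested gene lower in stimulated cells of each genotype. Its changes were -0.88 ± 0.13 in IL-10-/-, -0.50 ± 0.14 in IL-6-/- and -0.58 ± 0.13 in wild type cells, as the mean of both times. With LPS alone in wild type cells it changed by 0.04 at 45 min (limma adjusted p = 0.924) and -1.58 at 180 min. The highest group means, all at 45 min, were 2213.1 in IL-10-/-, 2718.5 in IL-6-/- and 2555.9 in wild type cells. The mean of the resting arrays was 2540.93. The second Igfbp4 probe set changed by -0.39 in wild type cells and was not called (limma adjusted p = 0.206).

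Already at 45 min of LPS alone the wild type cells differed from resting cells. At that time 23 of the 36 tested genes were higher and 0 lower, against 9.00% and 7.75% of all probe sets, and at 180 min 24 were higher and 2 lower, against 14.4% and 19.4%. The median change was 1.23 at 45 min and 1.13 at 180 min, where all probe sets had 0.03 and -0.09. At 45 min Lox had 1236.3 and 998.2, Col1a2 1770.2 and 3017.5, and Fn1 2148 and 1930.4. At 180 min Lox had 1311.8 and 900.4, Col1a2 2378.7 and 2258.9, and Fn1 1449.8 and 1803.9. The arrays of the 2 times overlapped for Lox and Col1a2, those of Fn1 were higher at 45 min, and all lay above the resting arrays. At 45 min the 6 largest rises were those of Lox (3.57 ± 0.36), Col1a2 (3.48 ± 0.34), Fn1 (2.78 ± 0.23), Serpinf1 (2.74 ± 0.28), Cxcl12 (2.73 ± 0.31) and Acta2 (2.68 ± 0.46). At 180 min they were those of Vcam1 (3.78 ± 0.30), Lox (3.54 ± 0.36), Col1a2 (3.48 ± 0.34), Mgp (2.89 ± 0.34), Bgn (2.48 ± 0.33) and Acta2 (2.47 ± 0.46). The other Vcam1 probe sets changed by 1.31 and 1.36 and the second Bgn probe set by 0.97 at 180 min. Col1a1 changed by 1.42 ± 0.24 at 45 min and 1.18 ± 0.24 at 180 min, and Col3a1 by 1.57 ± 0.29 and 1.20 ± 0.29.

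**Figure D3:**
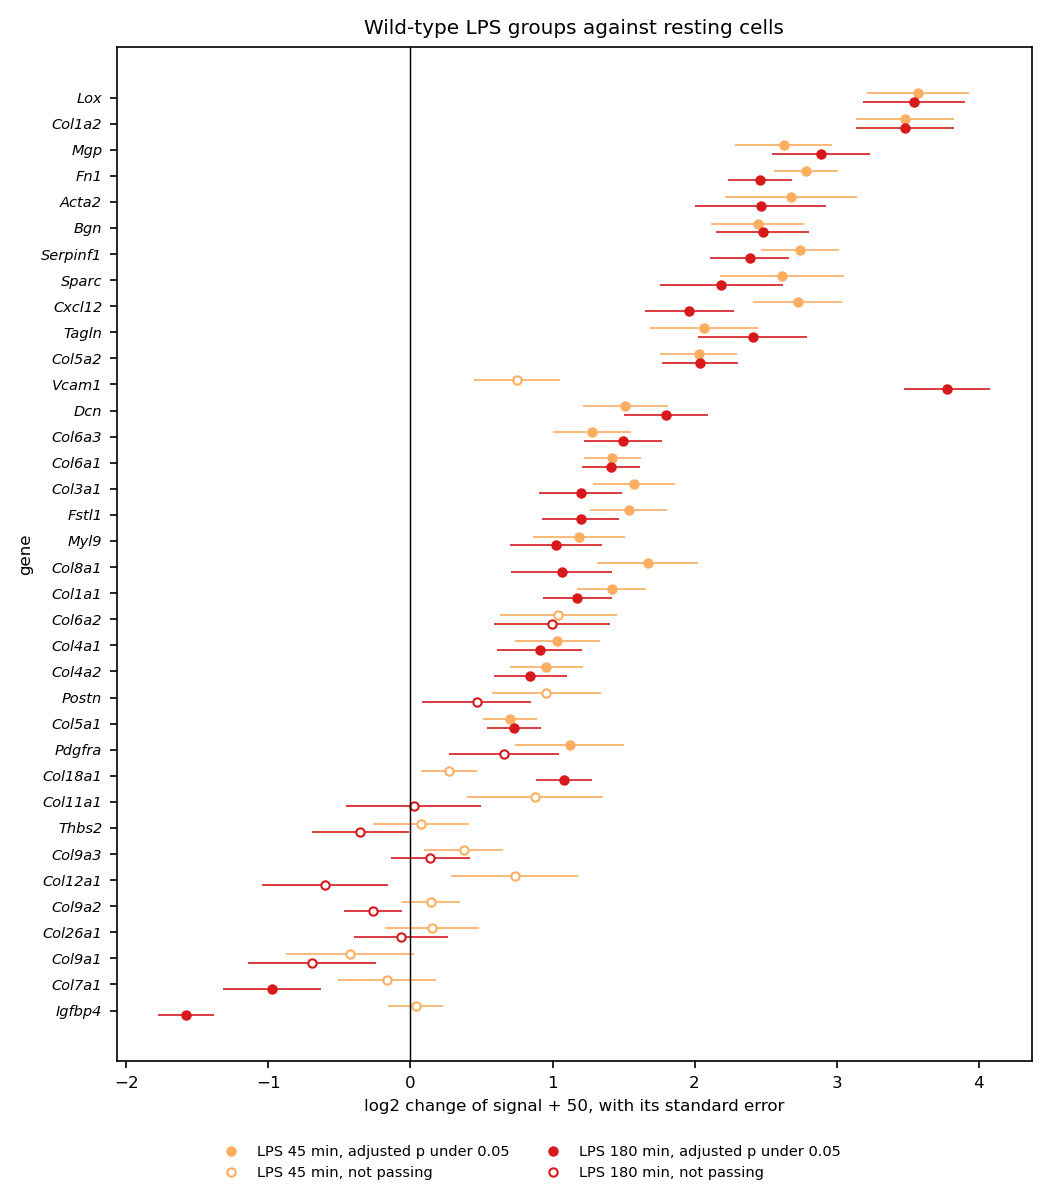
Log2 change with its standard error (x axis) for each tested gene in wild type cells with LPS alone for 45 min (orange) and 180 min (red) against resting cells, filled where the limma adjusted p is under 0.05. Lox and Col1a2 lie near 3.5 at both times, while Vcam1 and Igfbp4 move at 180 min.

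The falls at 180 min were those of Igfbp4 (-1.58 ± 0.19) and Col7a1 (-0.98 ± 0.34, limma adjusted p = 0.0305). Col7a1 had 78.4 and 247.9 in the wild type LPS arrays at 180 min, against 575.9, 259.8, 375 and 216.2 in resting arrays, so the groups overlapped. Its call was lost in 3 of 6 fits that left out an array: without resting replicate 1, resting replicate 3 or wild type replicate 1. Its value there ranged from -1.58 to -0.37, with an adjusted p of up to 0.568.

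Between 180 and 45 min of stimulation, over all genotypes and the LPS and LPS with IL-10 arms, 3 genes were higher and 1 lower, against 16% and 25.8% of all probe sets. The median change was -0.02, where all probe sets had -0.03. With quantile normalization, or with the resting arrays left out of the fit, 7 were called. The shares of all probe sets belong to the main fit, and none is given for these alternatives. Vcam1, which binds leukocyte integrins and is known to be induced by NF-kappaB, had 3319.6 and 2846.8 in IL-10-/-, 1212.8 in IL-6-/- and 972 and 718.6 in wild type arrays with LPS for 180 min. All arrays at 45 min lay between 12.3 and 125.1, and the resting arrays had 22.8, 10.1, 10.1 and 15.8. No array at 180 min overlapped those at 45 min, a change of 2.98 ± 0.15 (7.87-fold, limma adjusted p = 5.54e-14). No resting array and no array at 45 min reached the signal that the filter asks. This probe set was thus tested because of arrays at 180 min where it was high. Its call and the lack of overlap describe Vcam1 and lend no support to a difference between the times. The other Vcam1 probe sets changed by 1.20 and 1.44 (limma adjusted p = 4.53e-07 and 5.27e-08), so the size depends on the probe set. Col18a1 rose by 0.85 ± 0.10 and Dcn by 0.40 ± 0.15 (limma adjusted p = 0.0383), and the Dcn call was lost in 12 of 20 fits that left out an array, with an adjusted p of 0.0244 to 0.0845. Igfbp4 had 541 to 1216.7 in the arrays at 180 min and 1892.7 to 2906.5 in those at 45 min, with no overlap, a change of -1.44 ± 0.10 (limma adjusted p = 1.32e-11). Its second probe set changed by -0.35 (limma adjusted p = 0.121).

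Col1a1, Col1a2, Col3a1 and Fn1 were not called between the times. Their 95% intervals were -0.22 to 0.29 for Col1a1, -0.63 to 0.09 for Col1a2, -0.36 to 0.25 for Col3a1 and -0.38 to 0.10 for Fn1.

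**Figure D4:**
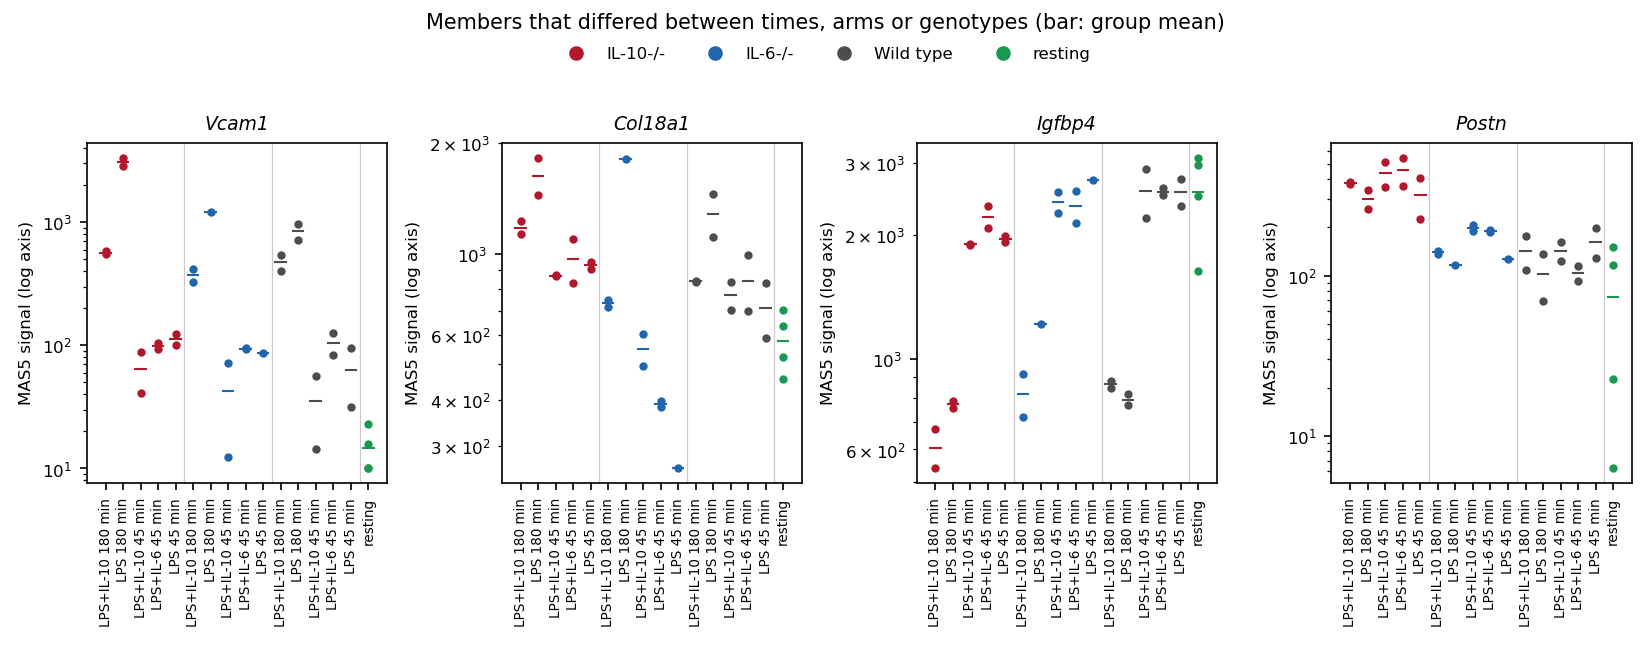
Signal of Vcam1, Col18a1, Igfbp4 and Postn in every array on a log axis, with dots for arrays and a bar for each group mean, and the IL-10-/-, IL-6-/-, wild type and resting groups from left to right. Vcam1 is highest in IL-10-/- cells with LPS for 180 min (3319.6 and 2846.8), Igfbp4 is lowest at 180 min, and Postn is highest in IL-10-/- cells.

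Added IL-10, the cytokine that restrains the macrophage response to LPS, came with called changes in Vcam1 and Col18a1 at 180 min. At 45 min 0 of the 36 genes were called by limma with IL-10 added to LPS, against 1.03% of all probe sets, and 2 had an unadjusted p under 0.05. The 95% intervals were -0.47 to 0.25 for Col1a1, -0.50 to 0.52 for Col1a2, -0.44 to 0.42 for Col3a1 and -0.30 to 0.37 for Fn1. At 180 min, as the mean of the genotypes, 0 were higher and 2 lower with IL-10, against 2.04% and 1.78% of all probe sets. Vcam1 had 546.8 and 584.3 with LPS and IL-10 in IL-10-/- cells, against 3319.6 and 2846.8 with LPS alone. It had 413.5 and 328 with IL-10 in IL-6-/- cells against 1212.8 with LPS alone, and 545.9 and 401.7 with IL-10 in wild type cells against 972 and 718.6 with LPS alone. In each genotype the arrays with IL-10 lay below those without, and the mean change was -1.57 ± 0.22 (limma adjusted p = 3.84e-05).

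Col18a1 had 1128.5 and 1225.5 with LPS and IL-10 in IL-10-/- cells, against 1819.4 and 1439.3 with LPS alone at 180 min. It had 749.6 and 714.6 with IL-10 in IL-6-/- cells against 1811.8 with LPS alone, and 842.4 and 838.8 with IL-10 in wild type cells against 1107.1 and 1455.3 with LPS alone. The arrays with IL-10 were again the lower ones in each genotype, with a mean change of -0.75 ± 0.14 (limma adjusted p = 0.00139). Over IL-10-/- and wild type cells alone, leaving out the genotype with the lone LPS array, the change of Col18a1 was -0.51 (limma adjusted p = 0.106). Igfbp4 had 541 and 672.5 with IL-10 in IL-10-/- cells against 756.2 and 790 with LPS alone, and was not called.

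Within a genotype fewer calls were made. In wild type cells at 180 min 0 of the 36 genes were called with IL-10 by limma, against 0.134% of all probe sets, and 2 had an unadjusted p under 0.05. In IL-10-/- cells 1 gene, Vcam1, was lower with IL-10 (-2.34 ± 0.35, limma adjusted p = 8.25e-05), against 1.26% of all probe sets. The difference of that IL-10 response between IL-10-/- and wild type cells was called for 0 genes, against 0.559%, and 1 had an unadjusted p under 0.05. With LPS alone at 180 min, 1 gene was higher in IL-10-/- than in wild type cells, against 1.01%, and again it was Vcam1 (1.82 ± 0.35, limma adjusted p = 0.00252). That call was lost without wild type replicate 2 (adjusted p = 0.075) or without IL-10-/- replicate 1 (adjusted p = 0.0525), and with a pseudocount of 10 (adjusted p = 0.0826). IL-6 added to LPS for 45 min gave 0 calls by limma, against 0.547% of all probe sets, and 1 gene had an unadjusted p under 0.05. Its 95% intervals were -0.58 to 0.14 for Col1a1, -0.41 to 0.61 for Col1a2, -0.41 to 0.45 for Col3a1 and -0.47 to 0.21 for Fn1.

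The genotypes were compared as the mean over the 5 stimulated conditions. The titles do not say which arrays share a bone marrow preparation, and the fit treated all arrays as independent. Genotype and preparation therefore cannot be told apart, and the p-values and overlaps below count arrays, not preparations. The 9 genes of the plot of signals by array, Col1a1, Col1a2, Col3a1, Fn1, Sparc, Dcn, Lox, Acta2 and Tagln, had a mean log2(signal + 50) of 10.07 to 10.25 in IL-10-/-, 9.33 to 9.65 in IL-6-/-, 9.80 to 10.02 in wild type and 6.91 to 8.40 in resting arrays. The group means ran from 10.08 to 10.21 in IL-10-/-, 9.48 to 9.59 in IL-6-/- and 9.84 to 10.02 in wild type cells, so the 3 genotypes did not overlap. This mean is a description, and no test was made on it.

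In IL-6-/- against wild type cells 0 genes were higher and 7 lower, against 1.78% and 1.95% of all probe sets. The median change of the 36 genes was -0.29, where all probe sets had -0.01. With the resting arrays left out of the fit 11 were called, and no share of all probe sets is given for that fit. The 7 were Mgp (-0.96 ± 0.19, limma adjusted p = 0.00413), Col1a2 (-0.79 ± 0.19, 0.0202), Col5a2 (-0.63 ± 0.15, 0.0184), Col3a1 (-0.59 ± 0.16, 0.0414), Col1a1 (-0.58 ± 0.14, 0.0147), Fn1 (-0.57 ± 0.13, 0.0106) and Col18a1 (-0.48 ± 0.11, 0.0124). Fibrillar collagens made 4 of the 7. The arrays of Col1a1, Mgp and Col5a2 did not overlap between IL-6-/- and wild type cells, as held for 0.438% of all probe sets with wild type the higher. Those of Col1a2, Col3a1, Fn1 and Col18a1 did overlap. The call of Col3a1 was lost in 11 of 16 fits that left out an array (adjusted p 0.0196 to 0.0942) and that of Col1a2 in 1, without wild type LPS 45 min replicate 2 (adjusted p = 0.0509). The second probe sets of Col1a2 and Col1a1 changed by -0.27 (adjusted p = 0.389) and -0.35 (adjusted p = 0.668) and were not called. With the mean of a gene's probe sets Col1a1 lost its call (adjusted p = 0.302), and with a pseudocount of 10 Col1a2 (adjusted p = 0.0639) and Col3a1 (adjusted p = 0.0707) did.

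**Figure D5:**
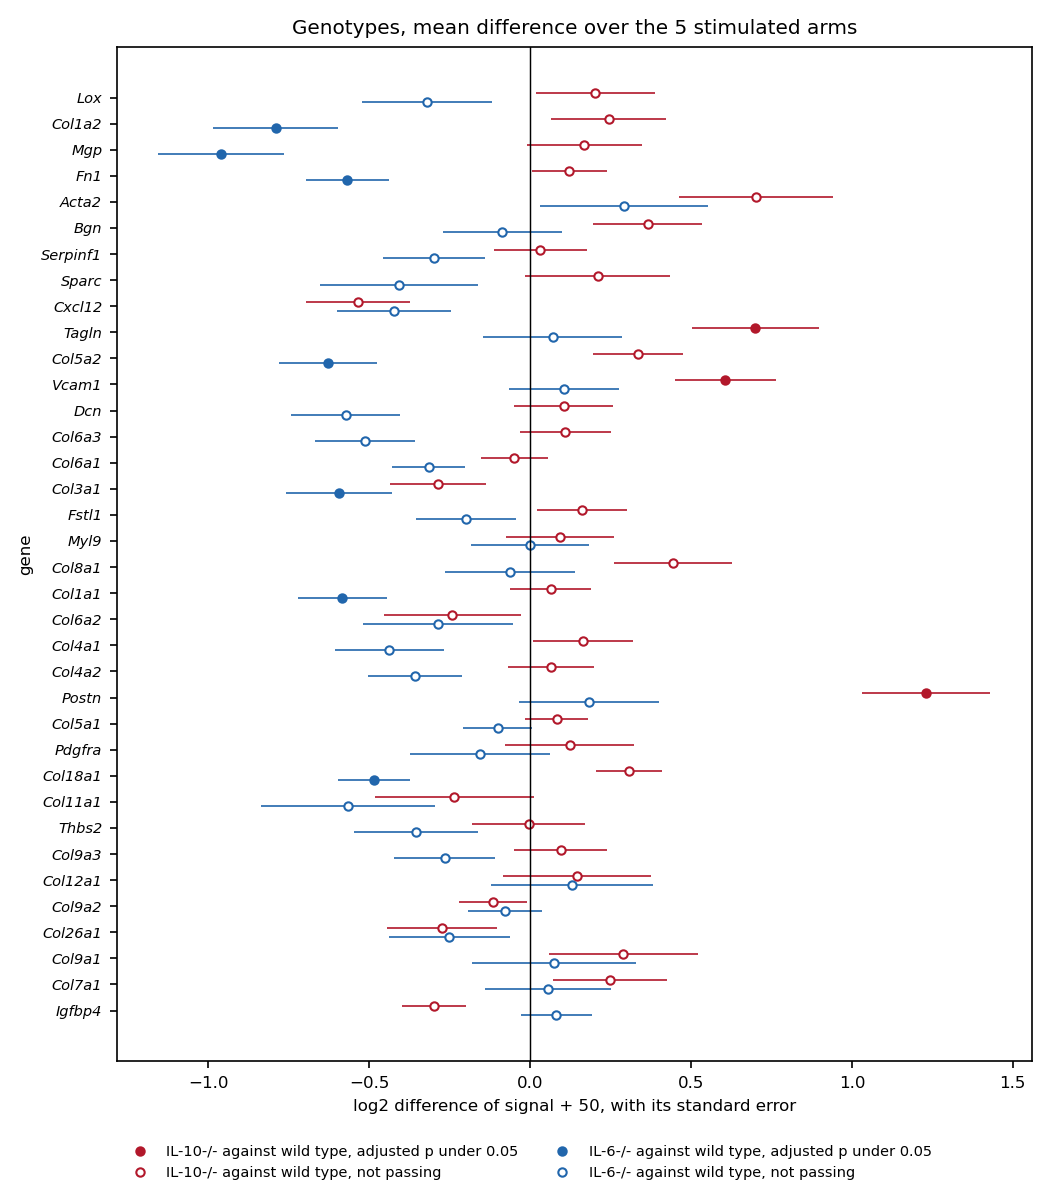
Log2 change with its standard error (x axis) for each tested gene in IL-10-/- (red) and IL-6-/- (blue) against wild type cells as the mean of 5 stimulated conditions, filled where the limma adjusted p is under 0.05. Postn, Tagln and Vcam1 are filled to the right in IL-10-/-, and 7 genes led by Mgp are filled to the left in IL-6-/-.

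In IL-10-/- against wild type cells 3 genes were higher and 0 lower, against 1.95% and 1.58% of all probe sets, with a median of 0.12 where all probe sets had -0.02. The number called was 7 with the resting arrays left out of the fit, 5 with a pseudocount of 200 or the mean of a gene's probe sets, and 1 with a pseudocount of 10. No share of all probe sets is given for these alternatives. Leaving out 1 array gave 1 to 2. Postn, periostin, a matricellular protein of activated fibroblasts, had 224.4 to 540.8 in IL-10-/- arrays (median 369.1), 116.1 to 206.1 in IL-6-/- arrays (median 164.3) and 69.8 to 196.8 in wild type arrays (median 125.25). The resting arrays had 116.2, 22.6, 6.3 and 149.7. Every IL-10-/- array was above every array of the other groups. The change was 1.23 ± 0.20 (2.35-fold, limma adjusted p = 0.000318), and the call held in all 20 fits that left out an array. No wild type array of Postn reached the signal of 200 that the filter asks. Postn was thus tested because of arrays where it was high, and its call lends no support to a difference. Tagln was 0.70 ± 0.20 higher (limma adjusted p = 0.0484) and lost its call in all 20 such fits, with an adjusted p of 0.0571 to 0.108. Vcam1 was 0.61 ± 0.16 higher (limma adjusted p = 0.0272) and lost its call in 11 of 20, with an adjusted p of 0.013 to 0.0793, and with a pseudocount of 10 (adjusted p = 0.12). Its other probe sets changed by 0.53 and 0.55 and were not called (limma adjusted p = 0.0556 and 0.0608). Acta2 changed by 0.70 ± 0.24 and was not called (limma adjusted p = 0.128).

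Between the knockouts, 10 genes were higher and 1 lower in IL-10-/- than in IL-6-/- cells, against 2.52% and 2.03% of all probe sets. The median was 0.38 where all probe sets had -0.0048. With the resting arrays left out of the fit 17 were called, with no share of all probe sets given for that fit. The largest were Mgp (1.13 ± 0.19), Postn (1.05 ± 0.22), Col1a2 (1.03 ± 0.19), Col5a2 (0.96 ± 0.15), Col18a1 (0.79 ± 0.11) and Fn1 (0.69 ± 0.13), and Col1a1 was 0.65 ± 0.14 higher. Postn is named here as a description, since it was tested because of arrays where it was high. Igfbp4 was lower (-0.38 ± 0.11, limma adjusted p = 0.0474), a call lost in 14 of 16 fits that left out an array, with an adjusted p of 0.0405 to 0.107. The 3 genotype comparisons share their arrays pairwise.

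Genes of the same pathway that were not on the list were read from fixed lists. Of the other matrix genes 26 of 44 on the array were tested, and in stimulated wild type cells 12 were higher and 1 lower than in resting cells, against 17.8% and 21.0% of all probe sets. The rises included the elastic fibre protein Fbln2 (3.31 ± 0.18), the matricellular Ccn2 (3.28 ± 0.30), the proteoglycan versican Vcan (2.28 ± 0.24) and Ogn (1.79 ± 0.27), and Matn4 was lower (-0.82 ± 0.31). Of the collagen-processing genes 14 of 15 were tested, with 5 higher and 3 lower, and the lower share was near that of all probe sets (21.0%, with 17.8% higher). Serpinh1, the collagen chaperone HSP47, rose by 2.60 ± 0.16 and Pcolce, the enhancer of procollagen cleavage, by 1.98 ± 0.25, while the prolyl hydroxylase P3h3 changed by -0.82 ± 0.26. In IL-6-/- against wild type cells Fbln2 (2.01 times lower on the signal + 50 scale) and Vcan (-0.93 ± 0.20) were lower, and none of the 14 processing genes was called. Of all probe sets 1.78% were called higher and 1.95% lower in that comparison.

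Markers of other cells moved in part with the matrix genes. Of the 20 mesenchymal markers 7 were tested, and 4 were higher and 0 lower in stimulated wild type than in resting cells, against 17.8% and 21.0% of all probe sets. The higher ones were Pdpn (1.30 ± 0.13), Prrx2 (0.89 ± 0.31), Islr (0.72 ± 0.21) and Kitl (0.55 ± 0.21), while Twist2, Snai2 and Ddr2 were not called. The summed mesenchymal signal was 2539.8 to 3904.3 in IL-10-/-, 2060.5 to 4029.3 in IL-6-/-, 2778.4 to 3710.6 in wild type and 1569.5 to 2545.9 in resting arrays. The other 13, among them the defining markers Thy1, Fap, Lepr, Tcf21, Meox2, Twist1 and Cdh11, did not reach 200 in the 2 arrays needed for the test. Of 10 smooth muscle and pericyte markers 6 were tested, with 3 higher (Mylk 1.20 ± 0.18, Tpm2 1.20 ± 0.31 and Tpm1 1.15 ± 0.13) and 0 lower, against the same shares of all probe sets. Actg2, Mcam and Des were tested and not called, and Myh11 and Cnn1 were not tested. The summed signal of the 10 was 3987.5 to 5624.2 in IL-10-/-, 3192.4 to 4010.4 in IL-6-/-, 3746.6 to 4736.7 in wild type and 2279.5 to 3362.3 in resting arrays. The mesenchymal sums of the genotypes overlapped, while the mean of the 9 genes did not. Median sums were 2964.2 in IL-10-/-, 2481.05 in IL-6-/- and 2989.4 in wild type arrays. In IL-6-/- against wild type cells 1 mesenchymal marker was higher and 0 lower, against 1.78% and 1.95% of all probe sets. Of the smooth muscle and pericyte markers 0 were higher and 1 lower there. The part of mesenchymal or smooth muscle cells in the results was not tested.

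The other lists are given for stimulated wild type against resting cells, with the same shares of all probe sets (17.8% higher and 21.0% lower). Of 5 tested endothelial markers (10 on the array) 1 was higher, the inducible adhesion molecule Sele (2.45 ± 0.22), and the sums were 2510.6 to 3745.6 in IL-10-/-, 2508.6 to 3781.5 in IL-6-/-, 2780.3 to 4442.8 in wild type and 2328 to 4031 in resting arrays. Of 6 tested adipocyte markers (8 on the array) 0 were higher and 2 lower, Cebpa (-1.37 ± 0.18) and Lpl (-0.76 ± 0.29), with sums of 6350.1 to 13470.3 in IL-10-/-, 2548 to 6400.8 in IL-6-/-, 2908.9 to 7036.9 in wild type and 5559.5 to 15302.1 in resting arrays. Lpl was 1.93 ± 0.22 higher in IL-10-/- than in wild type cells, and the adipocyte sums were higher in IL-10-/- arrays with some overlap. Median sums were 12438.1 in IL-10-/- and 6172.4 in wild type arrays, and Lpl alone had medians of 7929.55 and 2223.45. In the same order Adipoq had 100 and 104.15, Fabp4 282.6 and 240.25, and Pparg 225.1 and 118.05. The part of adipocytes in the genotype results was not tested. Of 2 tested bone and cartilage markers Ibsp was lower (-1.03 ± 0.33), and of 2 tested epithelial markers Cdh1 was higher (0.62 ± 0.22). Of the 14 macrophage markers 4 were higher and 5 lower in stimulated wild type cells, against 17.8% and 21.0% of all probe sets, with Msr1 (1.78 ± 0.16), Cd14 (0.91 ± 0.11) and Ptprc (0.86 ± 0.23) among the higher ones and Fcgr1 (-0.99 ± 0.20) among the lower ones.

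Within the 28 stimulated arrays the 10 probe sets most like Col3a1, among those with 1 symbol and outside the 50 genes, were read by Pearson correlation of log2(signal + 50). They were Gatm (0.74), Tox4 (0.71), Ang (0.70) and Usp38 (0.70), followed by Hpgd, Prdx2, Hgsnat, Acin1, Clec4a2 and Ctss (0.65 to 0.63), while Mgp had 0.58 (rank 38), Cxcl12 0.53 (rank 74) and Sparc 0.53 (rank 76). Only probe sets with 1 symbol are named, so these hold ranks 2 to 16 with gaps, counting Col3a1 itself as the first. These arrays share genotypes and conditions, and the correlations are given without a p.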

How the data were processed

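RNA of 34 cultures was measured on 1 array each, and the authors deposited 1 linear intensity per probe set, made with MAS5 per the submitters' processing notes, which give no version. The 2% trimmed mean of every array was 500.29 to 500.4, so the authors had scaled the arrays to 500. The number of arrays limits the precision. Symbols came from the platform's probe table: 10855 probe sets have 1 symbol, 396 several and 1237 are not listed. The 66 control probe sets were left out. Limma 3.58.1 in R 4.3.3 fitted 16 group means on log2(signal + 50) of 32 arrays, with an intensity trend (16 residual and 7.575 prior degrees of freedom). It gave 16 comparisons, 2-sided p-values and Benjamini-Hochberg adjustment over 8224 probe sets, those reaching 200 in 2 or more arrays. The script was tested on simulated data. Genes named in a comparison were the 6 largest called changes in each direction, Col1a1, Col1a2, Col3a1 and Fn1, up to 4 called genes of each other list and the 10 probe sets with 1 symbol, outside the 50 genes, most like Col3a1. Other values were named after they were seen. The genes and lists were chosen with earlier results of these data known. Alternatives changed the pseudocount, filter, normalization, trend, choice of probe set, block and samples. The other 2 arrays, 1 lacking a genotype in its title and 1 given different times by its title and its protocol, were left out of the fits.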

Additional observations from a re-analysis of the deposited data

Results flagged for a closer look

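In 5 of 50 groups of 4 resting signals a single array stood apart from the other 3 by Dixon's test, where chance gives about 1 in 20. Resting replicate 4 was high for Col5a1 at 626.5 and low for Col13a1 at 29.3. Resting replicate 1 was high for Col8a1 at 162.9, and resting replicate 2 was high for Col11a1 at 135 and for Col4a3 at 77.5. Col13a1 and Col4a3 were not tested between groups.

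The 2 arrays that entered no comparison were set beside the resting and stimulated ranges of the tested genes. In the first, 21 of the 36 tested genes lay above the highest resting array, and all 36 lay within the range of the stimulated arrays. In the second, 23 lay above the highest resting array and 33 within the range of the stimulated arrays. No share of all probe sets is given for these counts. Of the 36 genes, 10 had passed the signal filter through stimulated arrays alone. The counts therefore describe the 2 arrays and lend no support to a difference.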

How the results depend on the processing

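The 73 named changes were recomputed 1548 times over the alternatives: 1430 kept direction and call, 118 kept direction and lost the call, and 0 reversed. Of 330 recomputed counts of called genes 295 stayed within 1.5 times. Between 180 and 45 min (4 genes called) the count was 7 with quantile normalization, 7 with the replicate block, 7 without the resting arrays and 2 with a minimum log2 change of 1. For IL-10 at 180 min (2) it was 1 with IL-6-/- left out of the mean and 1 with that minimum. For IL-10-/- against wild type (3) it was 1 with a pseudocount of 10, 5 with 200, 8 with the replicate block, 7 without the resting arrays, 5 with the mean of a gene's probe sets and 1 with the minimum change. For IL-6-/- against wild type (7) it was 11 without the resting arrays and 0 with the minimum change, and for IL-10-/- against IL-6-/- (11) it was 17 and 3. For IL-10 at 180 min in IL-10-/- cells (1) it was 2 with the mean of probe sets. For IL-10-/- against wild type with LPS at 180 min (1) it was 0 with a pseudocount of 10, 2 with the replicate block, 3 without the resting arrays and 2 with the mean of probe sets. For the difference of the IL-10 response (0) it was 1 with a pseudocount of 200 and 1 with the mean of probe sets. The cause of these moves was not tested, and no share of all probe sets is given for the alternatives.

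Leaving out 1 array at a time gave 17 to 25 called genes for wild type LPS at 45 min, 22 to 27 at 180 min, 27 to 29 for stimulated IL-10-/-, 20 to 26 for stimulated IL-6-/- and 26 to 29 for stimulated wild type against resting. It gave 3 to 5 for 180 against 45 min, 1 to 2 for IL-10-/- and 5 to 7 for IL-6-/- against wild type, 9 to 11 between the knockouts and 0 to 1 for IL-10-/- against wild type with LPS at 180 min. For added IL-10 it gave 0 at 45 min, 2 at 180 min, 1 in IL-10-/-, 0 in wild type and 0 for their difference, and 0 for added IL-6. The 2 lone IL-6-/- arrays with LPS could not be left out of their comparisons. The differences of replicate 1 minus replicate 2 over the tested probe sets were correlated between groups of a genotype. Over 23 pairs of groups r was 0.020 to 0.441 (median 0.120), above 0.1 in 13. All 23 were positive, so same-numbered arrays of a genotype tended to deviate together, mostly weakly. The titles do not say that equal numbers share a preparation, so the main fit held no replicate block. The block moved no other count by over 1.5 times.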

Other observations

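Genes of TGF-beta and PDGF signalling, which act on matrix-making cells, were called in both directions. Of 15 tested (19 on the array) 5 were higher and 2 lower in stimulated wild type than in resting cells, against 17.8% and 21.0% of all probe sets. The rises included Skil, a SMAD repressor (1.61 ± 0.27, limma adjusted p = 3.6e-05), the activin chain Inhba (1.55 ± 0.25) and the growth factor Pdgfa (1.06 ± 0.14), while Tgfb1 was lower (-1.03 ± 0.21, limma adjusted p = 0.00036). Between 180 and 45 min 2 were higher and 5 lower, against 16% and 25.8% of all probe sets, among them Pdgfb (1.22 ± 0.14) and the repressors Ski (-1.93 ± 0.10) and Tgif1 (-1.59 ± 0.10). In IL-10-/- against wild type cells 3 were higher, Inhba (0.85 ± 0.19), Pdgfb (0.78 ± 0.15) and Tgfb3 (0.44 ± 0.12). Of all probe sets 1.95% were called higher and 1.58% lower there. In IL-6-/- against wild type cells Inhba was lower (-0.76 ± 0.20), where 1.78% of all probe sets were called higher and 1.95% lower. No link between these genes and the matrix genes was tested.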
